A study of Homo sapiens with 6 samples.

Results

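Interferon-stimulated genes (ISGs) are the genes that cells switch on after type I, type II or type III interferon binds its receptor. A set of 43 of them was followed in 2 clones of a colorectal cancer cell line. Each gene was represented by its brightest probe set that carries a single gene symbol. Such a probe set was found for 42 of the 43 genes, and STAT2, which had none, was not analysed here. Of the 42, 35 had a mean log2 value of at least 5 over the 6 arrays and were tested together with all 12317 genes above that level, out of 19775 genes named on the array. The other 7 lay close to background.

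The cells were HCA-7, an established human colorectal cancer line that forms colonies of 2 shapes in type 1 collagen. Clone cc3 gave cystic colonies and clone sc1 gave spiky colonies; both were grown in 3D collagen without a further treatment in the labels. RNA from the collagen layer that holds the cells was taken at day 5, 10 and 15, and 1 Affymetrix U133 Plus 2.0 array was run per clone and day. Each shape is 1 clone, so shape and clone cannot be told apart, and the labels do not say whether the 3 days of a clone were separate cultures and the p-values cover no more than the scatter among these 6 arrays.

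In textbook outline, interferon receptors activate the kinases JAK1 and TYK2. The signal reaches the nucleus through the complex ISGF3, of which STAT2 and IRF9 are parts. ISGF3 binds the interferon-stimulated response element (ISRE) near ISG starts, and some ISGs also carry a gamma-activated site (GAS). The induced proteins block viruses at entry, replication, translation and release, and several of them are also found in tumour cells with no added interferon.

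The sequence ISGF3 reads is shown here because it occurred in members of every kind of response described below. RefSeq windows (GRCh38.p14) of 300 bases, from 250 before to 50 after each start, were found for 33 of the 43 members. The letters GAAANNGAAA, searched on both strands, occurred in a window of 23 of these 33 members (69.7%), and of 4.38% of all 27305 genes with a window (3.57% of all 35116 windows). The letters TTCNNNGAA, a palindromic GAS-like pattern, occurred in 11 of the 33, and in 9.38% of all genes with a window (7.66% of windows). A letter match is a description and not a shown binding site. Below are the 250 bases before the start of ISG15 (chr1:1013247-1013496, plus strand), OAS3 (chr12:112938224-112938473, plus strand) and IFI6 (chr1:27672193-27672442, minus strand), 3 members that differed between the clones, with the match in capitals.
ISG15: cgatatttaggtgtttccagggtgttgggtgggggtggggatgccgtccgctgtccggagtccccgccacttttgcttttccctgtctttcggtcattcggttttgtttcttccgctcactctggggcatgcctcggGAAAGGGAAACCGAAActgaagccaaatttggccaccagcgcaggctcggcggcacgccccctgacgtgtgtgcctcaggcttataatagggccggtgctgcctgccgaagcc
OAS3: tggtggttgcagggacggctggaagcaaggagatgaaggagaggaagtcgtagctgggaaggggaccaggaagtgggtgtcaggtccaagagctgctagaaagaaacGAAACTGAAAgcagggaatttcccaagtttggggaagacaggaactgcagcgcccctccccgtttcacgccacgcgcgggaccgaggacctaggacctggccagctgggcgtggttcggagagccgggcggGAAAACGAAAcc
IFI6: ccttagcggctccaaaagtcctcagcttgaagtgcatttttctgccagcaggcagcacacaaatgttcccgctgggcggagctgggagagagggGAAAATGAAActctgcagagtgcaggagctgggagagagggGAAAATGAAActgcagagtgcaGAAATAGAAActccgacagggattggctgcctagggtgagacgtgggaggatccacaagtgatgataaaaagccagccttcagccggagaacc

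In ISG15 the capitals hold 2 overlapping matches, in OAS3 2 separate ones and in IFI6 3. Single matches of other members follow, each with 5 bases on either side and read on the strand that carries the letters. They are grouped as members that were lower in the spiky clone (MX1, PARP9 with DTX3L, IFI44, IFI27), members that were higher at day 15 (BST2, IFITM1, IFITM3, PARP14) and members that were lower at day 15 (IFIT5, HERC5).
MX1 (chr21:41420569-41420578): gaaatGAAACCGAAActgaa
PARP9 and DTX3L (chr3:122564332-122564341): gaagcGAAACTGAAActttg
IFI44 (chr1:78649771-78649780): gaaagGAAACTGAAActcag
IFI27 (chr14:94110628-94110637): tccagGAAACCGAAActgca
BST2 (chr19:17405751-17405760): tctggGAAACTGAAActgaa
IFITM1 (chr11:314034-314043): tctgaGAAACTGAAAcgaca
IFITM3 (chr11:320886-320895): gttgaGAAACCGAAActact
PARP14 (chr3:122680810-122680819): gaaacGAAAGCGAAAgagtc
IFIT5 (chr10:89414564-89414573): gctcaGAAACTGAAActtaa
HERC5 (chr4:88457045-88457054): cagtgGAAAACGAAAcataa

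PARP9 and DTX3L are neighbours read in opposite directions, and 1 match lies in the windows of both. The letters were present in 8 of the 9 members with a window that were lower in the spiky clone, the exception being OAS1, and in 12 of the 18 other tested members with a window. They were present in 7 of the 8 members with a window that were higher at day 15 than at day 5 or at day 10. IRF7, IFIT2, IFITM2, OAS2, OASL, MX2, GBP2, DHX58, USP18 and TRIM22 were not matched to a window.

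Array medians lay between 5.18 and 5.34, and the array values ran from 1.72 to 15.07 on the log2 scale. The epithelial genes EPCAM and KRT18 had means of 11.77 and 12.35, whereas 3 of 8 colon epithelium markers, KRT20, CDX2 and LGALS4, were below a mean of 5. Leukocyte markers were below 5 for 6 of 11 measured genes, among them PTPRC (2.95) and CD3E (2.82), and those of plasmacytoid dendritic cells, which make interferon, for 3 of 4. Fibroblast markers were below 5 for 6 of 8 genes and endothelial markers for 4 of 4. The ACTB 3' minus 5' probe difference, a sign of RNA quality, was 2.83, 3.18 and 3.28 in the cystic clone and 2.73, 2.74 and 3.10 in the spiky clone at day 5, 10 and 15. It was lower in the spiky clone at each day, and its part in the results was not tested.

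**Figure D1:**
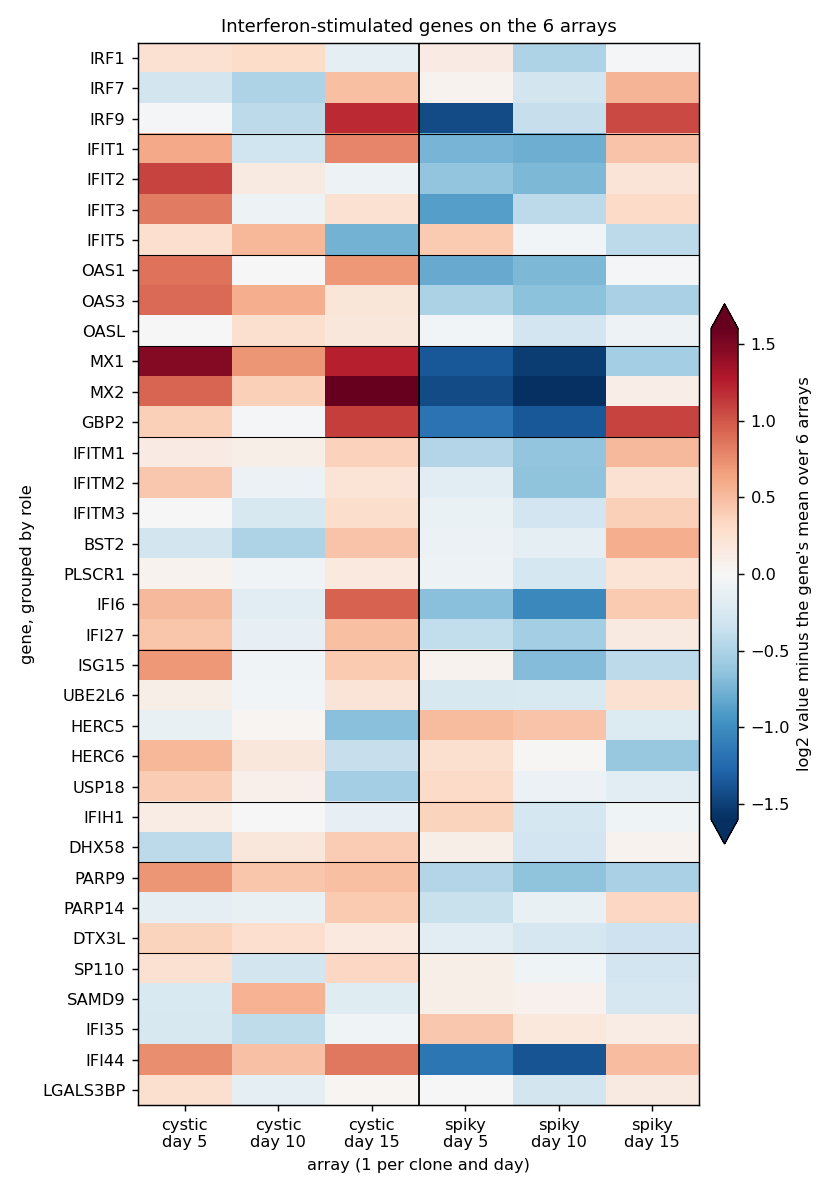
Heat map of the 35 tested interferon-stimulated genes (rows, grouped by role with black lines) on the 6 arrays (columns). Colour is the log2 value minus the gene's mean over the 6 arrays, with the scale ending at 1.6 either way; MX1, MX2, IFI44 and GBP2 are blue in the spiky clone at day 5 and 10, and HERC6 is blue at day 15 in both clones.

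The first question was how the clones differ. A set of 11 ISGs was lower in the spiky clone than in the cystic clone and none was higher (limma, adjusted p under 0.05 over all genes tested). They were the antiviral GTPases MX1 and MX2, the guanylate-binding protein GBP2, the RNA-sensing synthetases OAS1 and OAS3, the membrane proteins IFI6 and IFI27, the ubiquitin-like modifier ISG15, the partners PARP9 and DTX3L, and IFI44. That is 31.4% of the 35 tested members, where 7.74% of all genes tested were called lower and 3.65% higher. The members were chosen with earlier results of these data known, so this share and those below are descriptions. The median difference, spiky minus cystic, was -0.29 (log2) over the 35 members and -0.03 over all genes tested, and 29 of the 35 members had a negative value. At an unadjusted p under 0.05 stood 17 members, and 24.4% of all genes. In bulk RNA, fewer cells expressing a gene and less RNA per cell cannot be told apart.

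MX1 and MX2 showed the greatest differences among the 35 members. MX1, which traps viral nucleoproteins, measured 7.90, 7.15 and 7.68 in the cystic clone at day 5, 10 and 15, and 5.08, 4.92 and 5.90 in the spiky clone. Every spiky array was below every cystic array. The difference was -2.28 (SE 0.21, adjusted p = 0.00048, limma), at least 4.76-fold when array values under 5 are set to 5. MX2, its paralogue that restricts HIV, measured 6.54, 5.99 and 7.36 in the cystic clone and 4.17, 3.86 and 5.70 in the spiky clone. The clones did not overlap here either, and the spiky clone reached a value above 5 only at day 15. The MX2 difference was -2.05 (SE 0.20, limma adjusted p = 0.00051), at least 2.63-fold on the same footing. GBP2, of a GTPase family that acts on intracellular pathogens, measured 8.57, 8.15 and 9.29 in the cystic clone and 6.99, 6.82 and 9.26 in the spiky clone. Its clones stood apart at day 5 and 10 and lay side by side at day 15, with a fitted difference of -0.98 (SE 0.26, adjusted p = 0.041, limma). That call was lost with no filter on dim genes (limma adjusted p = 0.0818) and with arrays centred on their medians (0.0542). It was also lost without a trended prior (limma adjusted p = 0.134) and with a robust prior (0.0722). The difference was -0.52 (limma, adjusted p = 0.289) with the mean of all GBP2 probe sets. Without either day 5 array it was -0.68, and without either day 10 array -0.80, with limma adjusted p from 0.102 to 0.291. Leaving out either array of a day gives the same estimate, because its partner then carries no information on spiky minus cystic.

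OAS proteins make 2',5'-linked oligoadenylates that activate RNase L. OAS1 measured 7.68, 6.80 and 7.5 in the cystic clone and 6.0, 6.09 and 6.78 in the spiky clone. The highest spiky array, 6.78, lay just below the lowest cystic array, 6.80. Its difference was -1.03 (SE 0.22, adjusted p = 0.017, limma), and without either day 5 array it was -0.71 with a limma adjusted p of 0.111 to 0.118. OAS3 measured 9.65, 9.33 and 8.95 in the cystic clone and 8.25, 8.09 and 8.23 in the spiky clone, which kept them apart at every day. The OAS3 difference was -1.12 (SE 0.15, limma adjusted p = 0.0021), or 2.17-fold. OASL, a family member without synthetase activity, had a difference of -0.29 (limma adjusted p = 0.40), although its arrays did not overlap.

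PARP9, an ADP-ribosyltransferase family member, and DTX3L, its ubiquitin ligase partner, share the ISRE-like match printed above. PARP9 measured 8.36, 8.10 and 8.14 in the cystic clone and 7.19, 7.01 and 7.14 in the spiky clone. DTX3L measured 7.90, 7.82 and 7.70 against 7.36, 7.28 and 7.22. For both genes the clones did not overlap, and the change from day 5 to day 15 was -0.14 and -0.18, neither of which passed the test. The difference was -1.09 (SE 0.14, limma adjusted p = 0.0018) for PARP9. For DTX3L it was -0.52 (SE 0.14, limma adjusted p = 0.044), and it stood between -0.47 and -0.54 under all alternatives while the call was lost with arrays centred on their medians (adjusted p = 0.0579), with no filter on dim genes (0.0670) and without any 1 of the day 5 or day 10 arrays (0.209 to 0.211). PARP14, a larger relative, differed by -0.09 (limma adjusted p = 0.75).

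IFI44, a cytoplasmic protein of little known function, measured 6.89, 6.62 and 6.99 in the cystic clone and 4.99, 4.76 and 6.64 in the spiky clone. The spiky clone was near background at day 5 and 10 and close to the cystic clone at day 15. The fitted difference was -1.37 (SE 0.29, limma adjusted p = 0.018), at least 2.44-fold with values under 5 set to 5, and it was -1.10 (limma adjusted p = 0.153) without either day 5 array. IFI6, a mitochondrial and endoplasmic reticulum protein, measured 10.07, 9.38 and 10.49 in the cystic clone and 8.87, 8.51 and 9.96 in the spiky clone. The spiky array was the lower at each day, but its day 15 value exceeded the cystic day 10 value. The IFI6 difference was -0.86 (SE 0.13, limma adjusted p = 0.0040), and its call was lost with culture day as a number (limma adjusted p = 0.204). IFI27 measured 9.85, 9.28 and 9.89 against 9.02, 8.86 and 9.55, a difference of -0.53 (SE 0.12, limma adjusted p = 0.023). For IFI27 the day 15 spiky array also exceeded the lowest cystic array, and the limma adjusted p was 0.0533 to 0.205 without any 1 of the day 5 or day 10 arrays.

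ISG15 is attached to other proteins by an enzyme chain in which UBE2L6 carries it, HERC5 ligates it and USP18 removes it. ISG15 itself measured 9.17, 8.43 and 8.89 in the cystic clone and 8.54, 7.79 and 8.06 in the spiky clone. It was lower in the spiky clone at each day, with a difference of -0.70 (SE 0.12, limma adjusted p = 0.0073), and -0.74 (limma adjusted p 0.0562 to 0.0587) without either day 5 array. The enzymes did not pass the test between the clones. UBE2L6 differed by -0.17 (limma adjusted p = 0.36), HERC6 by -0.23 (0.29) and USP18 by 0.03 (0.94). HERC5 had a positive value of 0.50 (limma adjusted p = 0.071), which passed the threshold, at 0.0348 to 0.0461, with the mean of all probe sets, with arrays centred on their medians and with cyclic loess scaling.

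Members that did not pass included all 3 tested transcription factors. IRF1 measured 6.76, 6.81 and 6.36 in the cystic clone and 6.65, 6.02 and 6.49 in the spiky clone, a difference of -0.26 (limma adjusted p = 0.50). IRF7, which amplifies interferon production, measured 6.28, 6.08 and 7.05 against 6.63, 6.28 and 7.11, a difference of 0.20 (0.52). IRF9, the DNA-binding part of ISGF3, measured 6.96, 6.56 and 8.17 against 5.55, 6.61 and 8.03. The clones differed for IRF9 at day 5 and lay close at day 10 and 15, and the fitted difference was -0.50 (SE 0.26, limma adjusted p = 0.30).

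The IFIT proteins bind foreign RNA ends and block translation, and none of the 4 passed. IFIT1 measured 6.90, 5.98 and 7.07 in the cystic clone and 5.55, 5.51 and 6.76 in the spiky clone, a difference of -0.71 (SE 0.22, limma adjusted p = 0.077). IFIT2 measured 6.45, 5.52 and 5.28 against 4.74, 4.65 and 5.57, a difference of -0.76 (SE 0.32, 0.18). IFIT3, which binds IFIT1, measured 6.21, 5.29 and 5.61 against 4.49, 4.96 and 5.68, a difference of -0.66 (SE 0.31, 0.23). For IFIT2 and IFIT3 the spiky clone was the lower at day 5 and 10 and the higher at day 15. IFIT5 differed by -0.03 (limma adjusted p = 0.95).

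IFITM proteins restrict virus entry at membranes, and BST2 tethers budding virions. IFITM1 measured 9.14, 9.11 and 9.38 in the cystic clone and 8.54, 8.38 and 9.54 in the spiky clone, a difference of -0.39 (limma adjusted p = 0.19). IFITM3 measured 11.01, 10.75 and 11.29 against 10.90, 10.70 and 11.39, a difference of -0.02 (0.93), and its probe set, like that of IFITM2, is of a kind (_x_at) that can also bind related transcripts. BST2 and PLSCR1 differed by 0.23 and -0.10 (limma adjusted p = 0.30 and 0.62). Among the remaining effectors, IFI35 had higher values in every spiky array, 8.08, 7.82 and 7.76 against 7.38, 7.24 and 7.59, and did not pass (0.48, limma adjusted p = 0.085). The sensors IFIH1 and DHX58, and SP110, SAMD9 and LGALS3BP, had differences between -0.19 and 0.00.

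In all, 7 members had every spiky array below every cystic array (OAS1, OAS3, OASL, MX1, MX2, PARP9 and DTX3L), which is 20% of those tested, against 10.1% of all genes. The reverse held for 1 member, IFI35, against 5.50% of all genes. The levels of 9 members by day are plotted to show these separations and where they close.

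**Figure D2:**
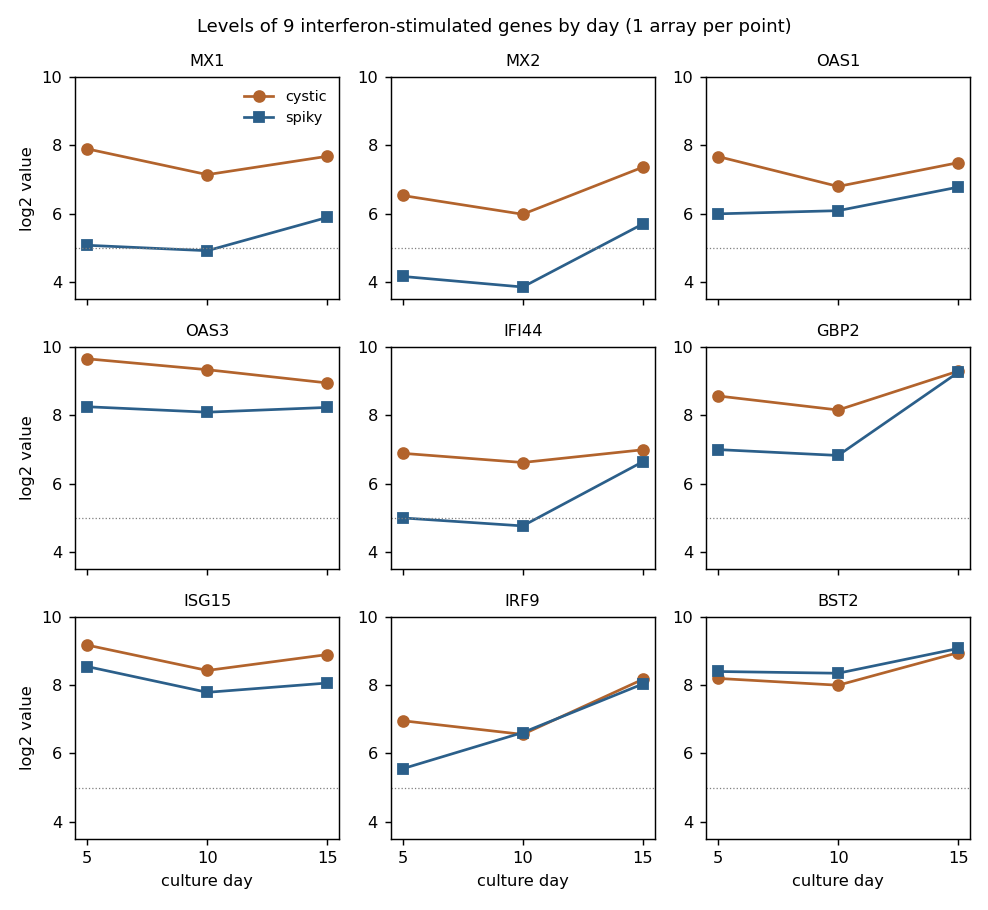
Log2 value (vertical axis) against culture day (horizontal axis) for 9 genes, 1 array per point, cystic clone as circles and spiky clone as squares, with a dotted line at 5, the level below which values count as close to background. MX1 and MX2 stay apart at all days, GBP2 meets at day 15 (9.29 and 9.26), and BST2 runs together in both clones.

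The differences were not equal at the 3 days. The median over the 35 members, spiky minus cystic, was -0.35 at day 5, -0.49 at day 10 and -0.08 at day 15, while that over all genes was 0.00, -0.08 and -0.02. Members with a negative value numbered 27, 28 and 19 of the 35, where 49.4%, 60.3% and 52.3% of all genes had a negative value. All 11 members called lower had a negative value at each day, which the fit favours because it counts disagreement between days as error. For 10 of the 11, all but ISG15, the value was smaller in size at day 15 than at day 5. Some of these shifts were small, from -0.54 to -0.48 for DTX3L and from -1.17 to -0.99 for PARP9. How many of all genes show a smaller value at day 15 was not counted. With both day 15 arrays left out, an alternative added after the data were seen, 16 members were called lower and 1 higher, among them IFIT1 (-0.91), IFIT2 (-1.29), IFIT3 (-1.03) and IFITM1 (-0.66) lower and IFI35 (0.64) higher, each with a limma adjusted p under the threshold. In that fit 2171 of all genes were called in place of 1403, so calls also grew in number over all genes. Of these, 1403 were lower in place of 953, and 768 higher in place of 450.

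**Figure D3:**
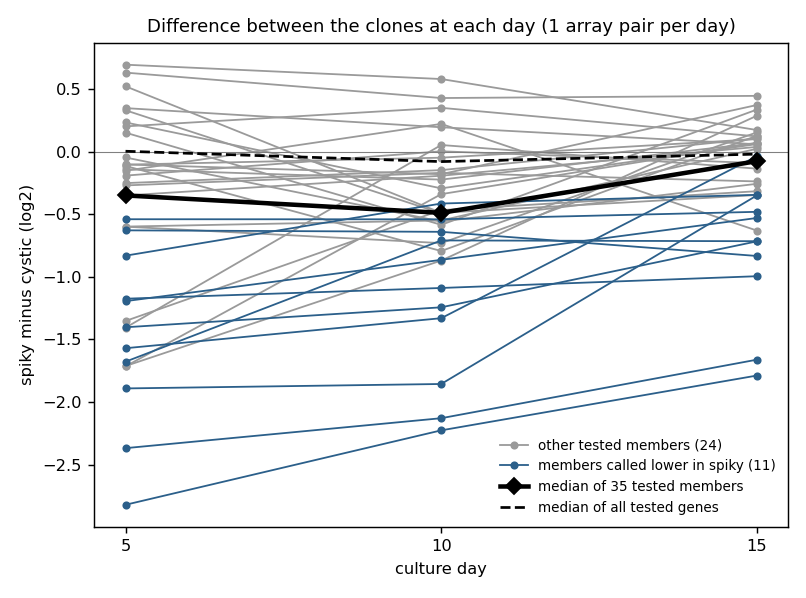
Spiky minus cystic difference in log2 (vertical axis) at each culture day (horizontal axis) for the 35 tested members, 1 thin line each, with the 11 called lower in blue. The thick black line, the median of the members, stands at -0.35, -0.49 and -0.08, and the dashed line, the median of all genes tested, stays near 0.

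Whether the change over time differed between the clones was tested directly. In a fit with a slope for each clone, 0 members and 0 of all genes were called (percent called 0.00), while 2 members and 309 genes (2.51%) had an unadjusted p under 0.05. The smallest p among members belonged to IFIT2, IFIT3 and OAS3, whose slopes per 10 days differed by 2.00, 1.78 and 0.69 (limma adjusted p = 0.999 for each). A second test, added after the data were seen, set the difference at day 15 against the mean of day 5 and day 10. It called 1 member, GBP2 (1.41, SE 0.25, limma adjusted p = 0.016), among 153 genes of 12317. IFI44 (1.52, adjusted p = 0.073, limma) and IFITM1 (0.82, adjusted p = 0.075, limma) came next. That test has 1 residual degree of freedom per gene before moderation.

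The position of the members on the chromosomes bears on 2 of them. MX1 and MX2 lie side by side on chromosome 21, where 64.4% of the other 135 tested genes were called lower in the spiky clone and the median difference was -0.58. Their 20 nearest tested genes had a median of -0.62, with 14 of 20 called lower, so the MX1 and MX2 values lay 1.66 and 1.43 (log2) below those of their surroundings. The other 9 members called lower lie on chromosomes 1, 3, 12 and 14, and the medians of their neighbours were between -0.10 and 0.11. With MX1 and MX2 set aside, 9 of 33 tested members were called lower, where 7.74% of all genes were. The part of chromosome 21 in the MX1 and MX2 differences was not tested.

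**Figure D4:**
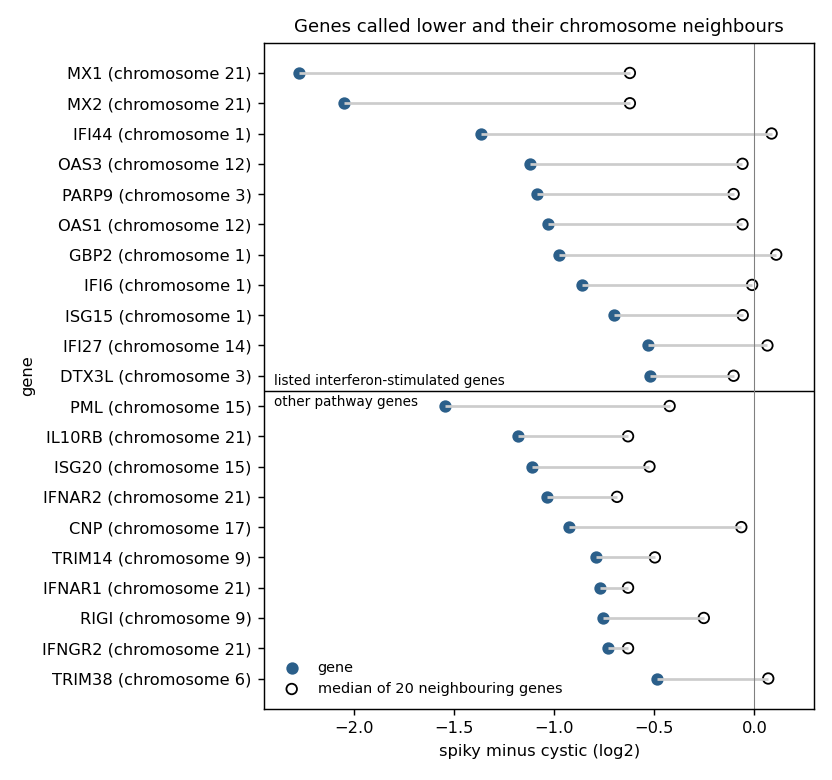
Spiky minus cystic difference in log2 (horizontal axis) of each gene called lower (filled) and the median of its 20 nearest tested genes on the chromosome (open), with the 11 listed members above the line and 10 other pathway genes below. Open circles sit near 0 for the 9 members off chromosome 21, and between -0.62 and -0.69 for the genes on chromosome 21.

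Of 62 further genes of the pathway, 58 were measured and 42 tested, and 10 of these were lower in the spiky clone and 0 higher (limma), where 7.74% of all genes were called lower and 3.65% higher. The median difference was -0.26 over the 42, a list also chosen with earlier results of these data known. Among receptors and kinases, 4 of 8 were lower: the type I receptor chains IFNAR1 (-0.77) and IFNAR2 (-1.04), the type II chain IFNGR2 (-0.73) and IL10RB (-1.18), a chain of the type III receptor. All 4 lie on chromosome 21, and their neighbours had medians of -0.63 to -0.69. JAK1 (-0.12), TYK2 (-0.12), IFNGR1 (0.22) and IFNLR1 (0.09), which lie elsewhere, did not pass. Of 28 further inducible genes 6 were lower: PML (-1.55), which builds nuclear bodies, the exonuclease ISG20 (-1.11), CNP (-0.93), TRIM14 (-0.79), the RNA sensor RIGI (-0.76) and TRIM38 (-0.49). Neighbour medians were -0.42 for PML, -0.52 for ISG20 and -0.50 for TRIM14, and -0.25 for RIGI, -0.07 for CNP and 0.07 for TRIM38. None of 6 negative regulators passed. The 9 measured interferon ligand genes had means of 2.40 to 3.79 and none was tested.

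The summed log2 value of the 11 leukocyte markers was 51.6 to 53.2 in the cystic clone and 47.7 to 51.6 in the spiky clone, and LYZ, which epithelial cells can also make, differed by -1.34, spiky minus cystic (limma adjusted p = 0.00024). The other 4 tested leukocyte markers did not pass, with CSF1R at -0.93 (limma adjusted p = 0.065), CORO1A at -0.58 (0.11), CD79A at -0.23 and CD3D at -0.10. Of the 5 tested epithelial markers, VIL1 was lower in the spiky clone (-0.68, limma adjusted p = 0.041). Sums over the 4 plasmacytoid dendritic cell markers were 16.6 to 17.6 and 16.8 to 18.0, with CLEC4C, LILRA4 and TCF4 below a mean of 5. Fibroblast markers summed to 34.5 to 37.2 and 33.5 to 35.8. Their part in the ISG differences was not tested.

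The second question was how the genes change with time in collagen. Between day 5 and day 15, 9 ISGs rose and 4 fell over both clones (limma). The 9 were IRF9, GBP2, MX2, IFI6, BST2, PARP14, IRF7, IFITM1 and IFITM3, and the 4 were IFIT5, HERC6, USP18 and HERC5. This is 25.7% and 11.4% of the 35 members, against 10.4% of all genes called higher and 21.9% called lower (32.3% called in all). The median change was 0.20 over the members and -0.11 over all genes. All 13 moved the same way in both clones, which the fit favours because it counts disagreement between the clones as error. For 7 of the 9 that rose, all but BST2 and IRF7, the value was larger in the spiky clone. No share over all genes was computed for this count, and the slope test called 0 members.

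IRF9 rose most among the members, by 1.85 (SE 0.32, limma adjusted p = 0.0035), from 6.96 to 8.17 in the cystic clone and from 5.55 to 8.03 in the spiky clone. Without the spiky day 5 array its value was 1.16 (limma adjusted p = 0.047). GBP2 rose by 1.5 (SE 0.31, limma adjusted p = 0.0074), and by 0.79 (0.012) without the spiky day 15 array, and MX2 by 1.18 (SE 0.24, adjusted p = 0.0066, limma). Both were also lower in the spiky clone, as was IFI6, which rose by 0.76 (SE 0.16, adjusted p = 0.0076, limma). These 3 are 27.3% of the 11 members lower in the spiky clone and 33.3% of the 9 that rose. Both shares are near those of all 35 tested members, of which 25.7% rose and 31.4% were lower in the spiky clone. The overlap over all genes was not computed. BST2 measured 8.19, 7.99 and 8.95 in the cystic clone and 8.40, 8.35 and 9.07 in the spiky clone. Its day 15 arrays were above all 4 earlier ones, a rise of 0.72 (SE 0.15, adjusted p = 0.0070, limma).

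Smaller rises were found in PARP14 (0.63, adjusted p = 0.021, limma), IRF7 (0.63, 0.041), IFITM1 (0.62, 0.046) and IFITM3 (0.38, 0.012). The IRF7 and IFITM1 calls were lost with no filter on dim genes (adjusted p = 0.0644 and 0.0851) and with arrays centred on their medians (0.0572 and 0.0675, limma). IFITM1 depended on single arrays: its value was 0.21 (limma adjusted p = 0.37) without the spiky day 15 array, 0.46 (0.35) without the spiky day 5 array and 1.03 (0.00022) without the cystic day 15 array. Of members not called, ISG15 changed by -0.38 (limma adjusted p = 0.081), IFIT1 by 0.69 (0.084, and 1.17 at 0.034 without the cystic day 5 array), MX1 and OAS1 by 0.30 each (0.43), IFI27 by 0.28 (0.18) and IRF1 by -0.28 (0.44).

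HERC6, a relative of the ISG15 ligase HERC5, measured 9.0, 8.66 and 8.10 in the cystic clone and 8.73, 8.49 and 7.86 in the spiky clone. It was lower at each later day in both clones, a change of -0.88 (SE 0.15, adjusted p = 0.0027, limma). With the mean of all its probe sets the HERC6 change was -0.52 and the call was lost (limma adjusted p = 0.0501). USP18 measured 7.0, 6.68 and 6.05 against 6.90, 6.50 and 6.42, a change of -0.72 (SE 0.22, adjusted p = 0.034, limma), which was not called (0.0577) with no filter on dim genes and was -0.46 (0.21) without the cystic day 15 array. HERC5 measured 6.93, 7.08 and 6.39 against 7.56, 7.51 and 6.83, and changed by -0.64 (SE 0.19, adjusted p = 0.030, limma). For HERC5 the step came after day 10 in both clones. IFIT5 measured 7.31, 7.57 and 6.27 against 7.46, 6.98 and 6.61 and changed by -0.94 (SE 0.25, adjusted p = 0.019, limma). Without the spiky day 5 array 1 of the 13 calls remained, that of IRF9, and without the cystic day 5 array 5 did. Over all genes, 761 and 2212 were called in these fits in place of 3982, each fit with 1 array left at day 5.

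**Figure D5:**
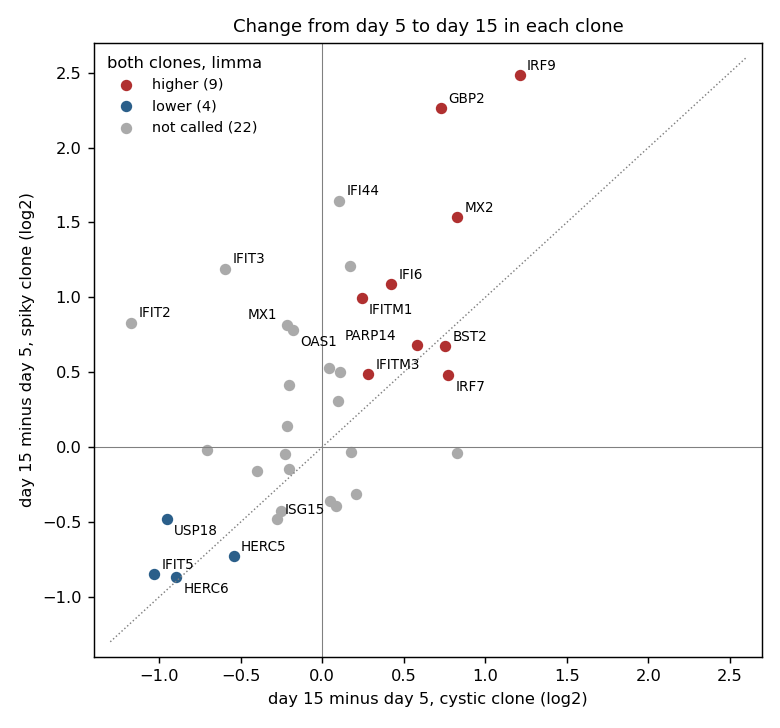
Day 15 minus day 5 in log2 for each of the 35 tested members, cystic clone (horizontal axis) against spiky clone (vertical axis), with members called higher over both clones in red (9), lower in blue (4) and the rest in grey (22). Red points lie in the upper right and blue points in the lower left, IRF9, GBP2 and MX2 lie above the dotted line of equal change, and IFIT2 and IFIT3 have opposite signs in the 2 clones.

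From day 5 to day 10, 0 of the 35 members were called (limma), where 0.0162% of all genes were (0.00812% in each direction), and 6 members and 1658 of all genes (13.5%) had an unadjusted p under 0.05. The fitted value was negative for 30 of 35 members, with a median of -0.25 against -0.10 over all genes. In the cystic clone 28 of 35 were negative, against 57.2% of all genes, with a median of -0.27 against -0.05. In the spiky clone 30 of 35 were, against 68.9% of all genes, with a median of -0.18 against -0.13. The smallest p belonged to ISG15 (-0.75, adjusted p = 0.144, limma), IFI6 (-0.53, 0.262) and IFITM2 (-0.49, 0.315). Each of these 3 was called, at a limma adjusted p of 0.0088 to 0.0496, when either day 15 array was left out. Either omission gives the same estimates, and 465 and 469 of all genes were then called in place of 2.

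From day 10 to day 15, 11 members rose (31.4%, against 8.66% of all genes) and 3 fell (8.57%, against 14.0%) by limma. Those that rose were GBP2 (1.79), MX2 (1.61), IRF9 (1.52), IFI6 (1.28), IFIT1 (1.17), IRF7 (0.91), BST2 (0.84), IFITM1 (0.71), IFI27 (0.65), IFITM3 (0.61) and IFITM2 (0.60), with adjusted p from 0.0018 to 0.043. IFITM2 and IFITM3 were each read by 1 probe set of the _x_at kind, which can also bind related transcripts. Those that fell were IFIT5 (-0.83), HERC5 (-0.69) and HERC6 (-0.59). With the mean of all probe sets the calls of IFIT5 (-0.59, limma adjusted p = 0.0784) and HERC6 (-0.38, 0.145) were lost. Without the cystic day 10 array IFIT5 was -0.42 (limma adjusted p = 0.43). Without the spiky day 15 array GBP2 was 1.08 (limma adjusted p = 0.0028), IFITM1 0.30 (0.21) and IFITM2 0.30 (0.25). IFITM1 was also 0.46 (limma adjusted p = 0.30) without the spiky day 10 array and 1.12 (0.00015) without the cystic day 15 array. The median was 0.37 over the members and -0.01 over all genes. This comparison and that of day 15 with day 5 share the day 15 arrays. Of the members that rose, 8 were common to both, which is 88.9% of the 9 and 72.7% of the 11. Without the cystic day 10 array 6 calls were made in place of 14, and without the spiky day 10 array 8. Over all genes, 1163 and 1019 were called in place of 2786, with 1 array left at day 10.

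Among the 42 further pathway genes tested, 5 rose and 6 fell between day 5 and day 15 (limma), where 10.4% of all genes were called higher, about the same share, and 21.9% lower. Those that rose were SOCS3 (1.82), a feedback inhibitor of JAK signalling, the death ligand TNFSF10 (1.06), TRIM38 (1.01), PIAS1 (0.83), a SUMO ligase, and TMEM140 (0.65). Those that fell were NMI (-1.32), GBP3 (-0.89), LAP3 (-0.85), IFNLR1 (-0.78), the specific chain of the type III receptor, TRIM14 (-0.53) and CNP (-0.48). Over the same days 1 of 2 tested fibroblast markers was called higher (COL1A1, 1.38, with the sign shared by 1 of its 3 other bright probe sets), while FBLN1 was 0.21. Of 5 tested leukocyte markers 1 was called higher (LYZ, 1.51), 3 had a negative value and the median was 0.00. Their part in the ISG changes was not tested.

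The 7 members close to background were GBP1 (mean 4.36), OAS2 (4.43), RSAD2 (4.6), XAF1 (4.30), SAMD9L (3.57), IFI44L (2.75) and TRIM22 (2.65), with array values of 2.31 to 5.03. Those nearest the threshold of 5 were DHX58 (5.05), IFIT2 (5.37) and IFIT3 (5.37) on the inside, and RSAD2, OAS2 and GBP1 on the outside. IFIT2, IFIT3, MX1, MX2, IFI44 and DHX58 had arrays under 5, so their folds against those arrays are bounds.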

How the data were processed

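RNA of 2 HCA-7 clones at 3 days was hybridised to 6 arrays. The deposited log2 values were made with RMA according to the submitters' processing notes, which name no version. RMA gives arrays the same distribution before probe sets are summarised, which removes global shifts between arrays. Precision is limited by the number of arrays. Of 54675 probe sets, 41097 had 1 gene symbol in the platform's gene table, 1801 had several and 11777 none, and 41043 matched RefSeq (GRCh38.p14). Each gene was taken from its brightest probe set with a single symbol, and a gene entered the tests where its log2 values averaged 5 or more.

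Limma 3.58.1 in R 4.3.3 was fitted with terms for colony shape and for each day, with a trended prior and 2 residual degrees of freedom, two-sided, with Benjamini-Hochberg adjustment over all genes tested and a threshold of 0.05. Slopes used day as a number. Array deviations correlated at 0.608, 0.496 and 0.719 between clones of the same day and from -0.655 to 0.291 between days, and day was kept as the block. No 2 arrays held the same values. The fit was also run on simulated data with independent noise drawn from its own variance prior. Those data held no error shared within an array, so that run does not test the design of 1 array per clone and day.

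Named are all members that passed, the 3 with the smallest p where none did, and a fixed set of regulators and effectors. Members and lists were chosen with earlier results of these data known. Alternatives were the filter, the probe set rule, scaling, the variance prior, the block and leaving out each array. Plots were drawn with matplotlib 3.10.9 in Python 3.11.15.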

Additional observations from a re-analysis of the deposited data

Results flagged for a closer look

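For GBP2, spiky minus cystic was higher by 1.41 at day 15 than over day 5 and day 10 (SE 0.25, limma adjusted p = 0.016). That contrast was chosen after the convergence at day 15 had been seen, so it restates that observation, and the planned slope test gave 1.53 with a limma adjusted p of 0.999. In 5 further members both later days lay on one side of day 5 in one clone and on the opposite side in the other. This rule uses signs only, and how many of all genes meet it was not counted. From day 5 to day 15 the spiky clone changed by -0.03 for OASL and -0.04 for DHX58, and the cystic clone by 0.04 for SAMD9. DHX58 also had a mean of 5.05, with arrays under 5. The slope test of the difference between the clones called none of the 5 (limma adjusted p = 0.999 for each). The change from day 5 to day 15, spiky minus cystic, was 1.78 for IFIT3, 0.96 for OAS1, -0.21 for OASL, -0.87 for DHX58 and -0.41 for SAMD9.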

How the results depend on the processing

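The design has 1 array per clone and day, so errors come from the deviation of days from a common difference between clones, with 2 residual degrees of freedom. For spiky minus cystic, 11 members were called. The count was 6 without a trended prior (MX1, MX2, OAS3, PARP9, IFI6 and ISG15) and 4 with day as a number (MX1, MX2, OAS3 and PARP9). It was 1 (MX1) with no replicate block, that is, with culture day left out of the model. Over all genes the calls were 691, 566 and 72 in place of 1403. The member count ranged from 5 to 17 when single arrays were left out, where 507 to 2157 of all genes were called. It was 5 without either day 5 array, and 17 without either or both day 15 arrays. Leaving out 1 or both arrays of a day gives the same estimates, so these are not separate checks. Other alternatives gave 9 to 12. For day 15 minus day 5, 13 were called, 2 with colony shape left out, and 1 to 13 without single arrays. Over all genes these counts were 3982, 1457, and 761 to 4318. For day 10 minus day 5, 0 were called, and 0 to 3 without single arrays (2, and 0 to 469, over all genes). For day 15 minus day 10, 14 were called, 9 without a trended prior, 1 with shape left out, and 6 to 20 without single arrays. Over all genes these were 2786, 1444, 337, and 1019 to 3577. For the slope difference 0 were called, and 1 with the interaction of shape with day 15 (0 and 153 over all genes). Over all genes, the share of lower calls was 67.9% for spiky minus cystic and 55.5% with arrays centred on their medians. It was 67.7% for day 15 minus day 5 and 55.1% with cyclic loess, and 61.7% for day 15 minus day 10, 73.0% centred and 50.5% with loess. Some values changed sign. IRF1, day 15 minus day 10, was 0.01, and -0.088 with the mean of all probe sets, -0.072 centred, -0.034 with loess and -0.39 to 0.41 without single arrays. The OAS3 slope difference was 0.69 and -0.013 with the mean of all probe sets. IFITM3, spiky minus cystic, was 0.038 centred and -0.076 to 0.026 without single arrays, and IRF1 was -0.45 to 0.0068. For day 15 minus day 5, single arrays left out gave IRF1 -0.57 to 0.0094 (-0.28 with all), MX1 -0.11 to 0.71 and OAS1 -0.18 to 0.78 (0.30 each with all). The cause was not tested.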
